A study of Mus musculus with 84 samples.

Results

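The data hold 84 mouse vagal sensory neurons labelled from the airways and sequenced one by one. Among those kept for depth and gene number, 8 carried Calca transcripts with few or none of Prdm12. They were chosen by their own counts, which were scaled to a sum of 1000000 in each neuron (CPM). A neuron was kept with at least 5000000 total counts and at least 5000 genes at 10 CPM or more, and it entered the comparison with Prdm12 below 10 CPM. Of all neurons, 72 had enough counts, 38 also had enough genes, and 32 of these had Prdm12 below 10 CPM. The 8 with Calca at 10 CPM or more are the Calca neurons (25% of 32, exact 95% binomial interval 11.5 to 43.4%), and the 24 below it are the comparison neurons. The other 6 kept neurons had Prdm12 at 10 CPM or more and are called Prdm12 neurons. Of the 46 neurons not kept, 18 also had Calca at 10 CPM or more and Prdm12 below 10 CPM.

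All neurons came from mice of the C57BL/6 strain whose airways had received the lipophilic dye DiI (2%), which travels back along axons to the cell body. Each labelled cell was picked on its own and its mRNA was amplified before sequencing. The labels put all 84 neurons in 1 group and name no genotype, treatment, age or animal. A class of neurons therefore counts as 1 sample here: values describe these cells, no p-value was computed, and intervals cover counting error only.

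Calca encodes calcitonin gene-related peptide (CGRP) and, through a different choice of exons, calcitonin. In sensory neurons CGRP is stored in dense core vesicles, is released from peripheral and central endings, and acts on a receptor made of Calcrl and Ramp1. The vagal ganglia join the nodose ganglion, formed from placodes, with the jugular ganglion, formed from the neural crest, and Prdm12 is a transcription factor of crest-derived nociceptors.

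Because the counts are per gene, the part of Calca that codes for CGRP is shown with that of its neighbour and near copy Calcb, which encodes the beta form of CGRP. Capitals mark the longest run of bases that the 2 exons share. The sequences are the coding part of exon 4 of the GENCODE M21 transcripts Calca-201 (GRCm38, chr7:114632443-114632599, minus strand, 157 bases) and Calcb-201 (chr7:114721975-114722134, plus strand, 160 bases). Both are read 5′ to 3′ along the transcript.
Calca CGRP exon: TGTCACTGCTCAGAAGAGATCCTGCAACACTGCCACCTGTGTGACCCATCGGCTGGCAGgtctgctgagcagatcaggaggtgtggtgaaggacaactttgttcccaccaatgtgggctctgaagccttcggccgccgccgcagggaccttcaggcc
Calcb CGRP exon: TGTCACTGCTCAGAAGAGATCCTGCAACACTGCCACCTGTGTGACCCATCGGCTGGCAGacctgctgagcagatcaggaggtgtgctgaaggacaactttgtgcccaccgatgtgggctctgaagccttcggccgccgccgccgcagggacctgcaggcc
The capitals span 59 bases and open the exon in both genes. Over the 157 aligned bases, 151 were identical (96.2%). The reads were 76 bases long, and 0 of the 919 stretches of that length in Calca-201 occurred exactly in Calcb-201. How a read with mismatches was assigned is not given in the sources used here, so low Calcb values beside high Calca values are uncertain. The coding part of the calcitonin exon lies at chr7:114633605-114633785. A count per gene does not separate transcripts that use that exon from those that code for CGRP.

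Calca, the gene that chose the neurons (chromosome 7, 114631478 to 114636357, minus strand), spanned a 588-fold range among the 8. It stood at 16.2 CPM in neuron AM059, 47.7 in AM006, 129 in AM249, 131 in AM018, 233.5 in AM020, 379 in AM283, 2143 in AM284 and 9512 in AM021. In all, 6 of the 8 lay at 100 CPM or more and 2 lay above 1000 CPM, so the class joins cells with abundant Calca and cells near the limit. Just below the limit were the comparison neurons AM069 at 9.27 CPM and AM271 at 7.63 CPM. The 24 comparison neurons had a median of 0.494 CPM, and 14 of them lay below 1 CPM.

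**Figure D1:**
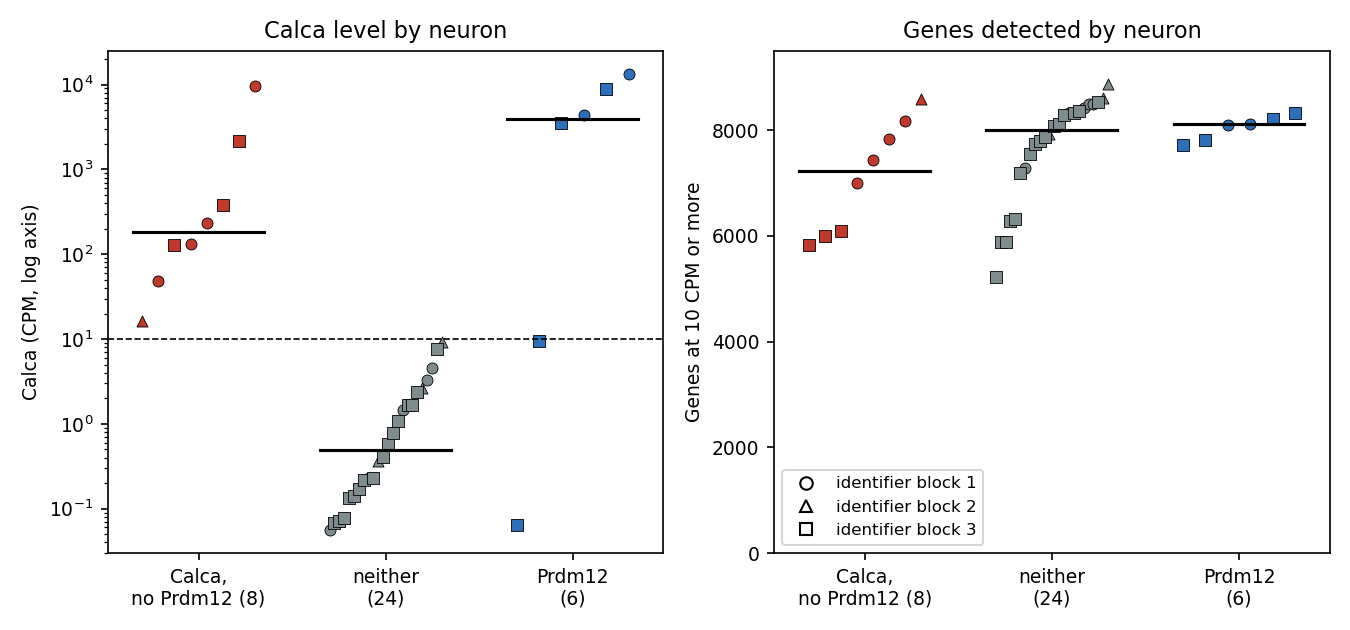
Calca level (CPM, log axis, left) and number of genes at 10 CPM or more (right) in each kept neuron; points are neurons, their shape gives the run of identifier numbers, bars are medians and the dashed line is 10 CPM. Calca neurons run from 16.2 to 9512 CPM, and the 3 Calca neurons of the last run detect the fewest genes of the 8 Calca neurons, at 5826 to 6089.

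Prdm12 was absent or close to it. It had 0 counts in 4 of the 8 Calca neurons and at most 4 counts in the others, with a highest level of 0.251 CPM, against 22.04 to 87.0 CPM in the 6 Prdm12 neurons. Calca was not particular to cells without Prdm12: 4 of the 6 Prdm12 neurons held it, at 3507, 4325, 8796 and 13480 CPM, while the other two stood at 9.43 and 0.0642 CPM. These levels, like those of Calca, follow from how the classes were drawn.

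The picked cells carried neuronal transcripts. Transcripts of 10 genes common to all neurons summed to 14784 CPM in the median Calca neuron and to 15693 CPM in the median comparison neuron. Of the 10 genes, 8 reached 10 CPM in every Calca neuron, 9 in every comparison neuron and 10 in every Prdm12 neuron. Total counts ran from 10274511 to 20668832 in Calca neurons and from 7667941 to 20063519 in comparison neurons. Calca neurons had fewer genes at 10 CPM, with a median of 7224 against 7995.5. Neuron identifiers fall into 3 runs of numbers, which the labels do not call batches and which hold 4, 1 and 3 of the Calca neurons and 5, 3 and 16 of the comparison neurons. Within the first run the median gene number was 7639.5 against 8411, and within the last it was 5992 against 7763.5. The second run holds 1 Calca neuron, so it gives no comparison. Fewer genes at 10 CPM move with the class, and their part in the results below was not tested.

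Most Calca neurons carried the nodose markers P2rx2, Ntrk2 and Hoxb5, while the nodose marker Phox2a, described below, lay under 10 CPM in most. P2rx2, a subunit of ATP-gated channels, reached 10 CPM in 7 of 8 Calca neurons, 19 of 24 comparison neurons and 0 of 6 Prdm12 neurons, where a count of 0 allows a share of up to 50%. Ntrk2, the receptor of brain-derived neurotrophic factor, did so in 8 of 8, 24 of 24 and 3 of 6. The homeobox gene Hoxb5, whose exons overlap Hoxb5os on the other strand, did so in 7 of 8, 24 of 24 and 1 of 6. Hoxb4 and Eya1 were not among the listed nodose markers. Hoxb4, a neighbouring homeobox gene, was found in 8 of 8, 23 of 24 and 2 of 6. Eya1, a cofactor of placode development, was found in 7 of 8, 16 of 24 and 0 of 6.

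P2rx2 was at 43.2 CPM in AM059, 132 in AM006, 96.5 in AM249, 313 in AM018, 93.9 in AM020, 21.7 in AM283, 0.643 in AM284 and 80.4 in AM021. Comparison neurons ran from 0.0924 to 377 CPM with a median of 37.02, a range that holds all 8 values. Hoxb5 was at 176, 310, 4.09, 376, 254, 105, 13.3 and 78.8 CPM in the same order, and AM249 and AM284 lay below the lowest comparison neuron, at 38.4 CPM. Both of those cells kept Ntrk2 (601 and 58.3 CPM) and Hoxb4 (75.6 and 160 CPM).

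Jugular markers were mixed. Pou4f3, a sensory transcription factor, reached 10 CPM in 0 of 8 Calca neurons, 3 of 24 comparison neurons and 6 of 6 Prdm12 neurons. Htr1b, a serotonin receptor whose exons overlap D430036J16Rik, did so in 1 of 8, 0 of 24 and 6 of 6, with AM006 alone at 24.01 CPM. Prrxl1, a homeobox gene of nociceptive circuits, was found in 4 of 8 Calca neurons at 25.1 to 86.6 CPM, in 11 of 24 comparison neurons and in 6 of 6 Prdm12 neurons. All 6 Prdm12 neurons, at 162 to 322 CPM, lay above the highest Calca neuron. Runx1 (8 of 8 against 23 of 24), whose exons overlap Gm26626, and Tac1 (6 of 8 against 15 of 24) were common in both classes without Prdm12.

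The nodose marker Phox2a, a transcription factor of visceral neurons, has an exon overlap with Inppl1. It was the marker seen in Calca neurons alone, at 41.8 CPM in AM018 and 12.7 CPM in AM006. With 2 of 8 (3.19 to 65.1%) against 0 of 24 (up to 12.5%), the intervals overlap. Of the 9 ganglion markers, Phox2a, Pou4f3 and Htr1b reached 10 CPM in fewer than 4 of the neurons and were not compared. None of the others was called by the size rule used here, beside 0.164% of all genes compared called higher and 1.3% lower. That rule asks for a difference of 40 points or more in the share of neurons at 10 CPM and of 1 or more in the median of log2(CPM + 10), in the same direction.

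**Figure D2:**
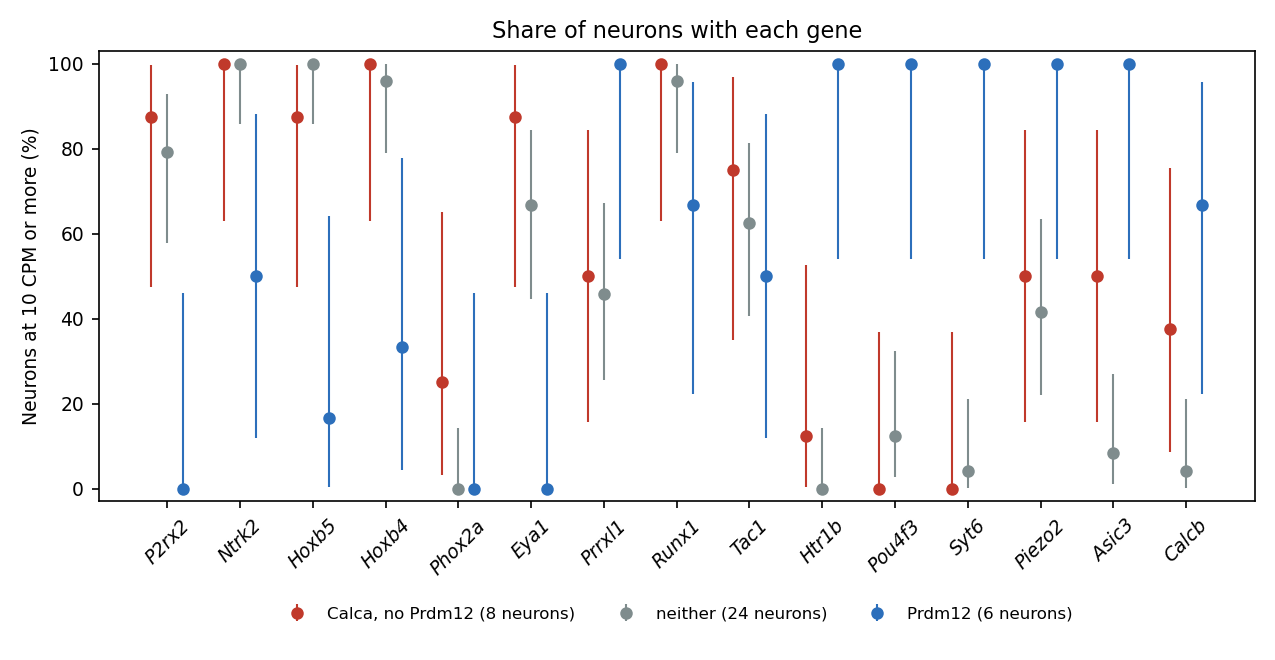
Share of neurons (%) at 10 CPM or more for 15 genes in the 8 Calca neurons, the 24 comparison neurons and the 6 Prdm12 neurons; bars are exact 95% binomial intervals. Calca neurons sit with the comparison neurons for P2rx2 (7 of 8 and 19 of 24) and Pou4f3 (0 of 8 and 3 of 24), and away from the Prdm12 neurons (0 of 6 and 6 of 6).

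Of the calcitonin family, Calcb was the member found most often beside Calca. It stood at 89.6 CPM in AM283, 211 in AM284 and 57.6 in AM021, and at or below 0.242 CPM in the other 5 Calca neurons. These 3 cells are the 3 with the most Calca. Among the 24 comparison neurons 1 reached 10 CPM, at 19.7 CPM, so the shares were 37.5% and 4.17%, a difference of 33.3 points that the size rule did not call. Calcb was also held by 4 of the 6 Prdm12 neurons, at 65.4, 124, 161 and 532 CPM.

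Calcrl, the receptor body for CGRP, was at 129 CPM in AM249 and had no count in the other 7 Calca neurons, and 1 comparison neuron had it at 12.5 CPM. AM249 also had the highest sum of endothelial markers of the 8, at 120 CPM, with Flt1 above 10 CPM, and their part in its Calcrl was not tested. Ramp1, which makes that receptor respond to CGRP, reached 10 CPM in 0 of 8 and 0 of 24 neurons, as did Calcr, Adm2 and Iapp. Adm, Ramp2 and Ramp3 did so in 0 of 8 Calca neurons and in 1 of 24 comparison neurons each. Crcp, a component of CGRP receptor signalling, was found in 7 of 8 and 24 of 24.

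Calca neurons carried other peptides in combinations that differed from cell to cell. Adcyap1, which encodes PACAP, reached 10 CPM in 6 of 8 Calca neurons and 18 of 24 comparison neurons. Its levels in AM059, AM006, AM249, AM018, AM020, AM283, AM284 and AM021 were 158, 65.3, 473, 0.0484, 77.9, 9.15, 918 and 1308 CPM, against 0 to 1500 CPM (median 61.9) in comparison neurons. The 2 cells with the most Calca also had the most Adcyap1, and the classes overlapped over nearly their whole range.

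Tac1, the precursor of substance P, is often described together with CGRP. In the same order it stood at 2964, 10.01, 0.389, 14.3, 73.3, 0.0782, 41.3 and 37.8 CPM, with a median of 26.1 against 152 CPM in comparison neurons (0 to 7773). Only AM059, the cell with the least Calca, lay above the comparison median. AM021 and AM284, with the most Calca, had Tac1 below 50 CPM.

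Some peptides marked single cells. Penk, the enkephalin precursor, was at 2517 CPM in AM249 and at 0 in the other 7 Calca neurons, and no comparison neuron passed 0.214 CPM. Nts, neurotensin, was at 3532 CPM in AM283 and 49.2 CPM in AM249, and 6 of 24 comparison neurons also held it, up to 17473 CPM. Nppb, a natriuretic peptide, was at 51.7 CPM in AM021, Vip at 47.2 CPM in AM021 and 31.04 CPM in AM020, and Grp at 285, 136 and 15.1 CPM in AM249, AM283 and AM018. Across the 18 neuropeptide genes, 10 were compared, 7 had a higher share in Calca neurons, 1 a lower share and 0 were called. The median difference was 10.4 points against -4.17 points over all 10946 genes compared, of which 2753 had a higher share and 5483 a lower one.

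Of 19 genes for dense core vesicles and peptide processing, 17 were compared and 0 were called, where 0.164% of all genes compared were called higher and 1.3% lower. The median difference was 0 points. Cpe, a carboxypeptidase that trims peptides, ran from 578 to 5440 CPM in Calca neurons and from 187 to 6095 CPM in comparison neurons. The convertase Pcsk2 and the granin-family gene Scg2 reached 10 CPM in 8 of 8 Calca neurons and in 24 and 23 of 24 comparison neurons.

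Channels of irritant-sensing endings were uneven. Trpv1, the capsaicin receptor, reached 10 CPM in 5 of 8 Calca neurons, at 15.02 CPM in AM020, 28.2 in AM284, 50.9 in AM283, 59.8 in AM018 and 923 in AM021, and lay at or below 1.07 CPM in the other 3. Of the comparison neurons 7 of 24 reached it, up to 269 CPM. Trpa1, the receptor for electrophilic irritants, was found in 3 of 8, at 39.7 CPM in AM020, 77.6 in AM284 and 2415 in AM021, and in 6 of 24, up to 872 CPM. AM021 exceeded every comparison neuron for both genes, while the other 7 Calca neurons lay within the comparison range.

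Of 15 TRP channels, 9 were compared, 7 had a higher share in Calca neurons and 2 a lower one, and the median difference was 12.5 points. None was called, which at 0.164% higher and 1.3% lower over all genes says nothing about the family. Of all 10946 genes compared, 2753 had a higher share and 5483 a lower one, with a median of -4.17 points. Of 17 genes of peptidergic nociceptors, 14 were compared, with a median difference of 2.08 points, and likewise 0 were called. Gfra3, the receptor of artemin in peptidergic nociceptors, was at 480 CPM in AM021 and at 1.09 CPM or less in the other 7, and no comparison neuron passed 8.05 CPM.

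Sodium channels of nociceptors divided the class. Scn10a, which encodes Nav1.8, stood at 236 CPM in AM059, 66.1 in AM020, 39.9 in AM283, 193 in AM284 and 308 in AM021, but at 0.362, 0.389 and 0.194 CPM in AM006, AM249 and AM018. In comparison neurons 22 of 24 reached 10 CPM, with a median of 151. Scn9a, which encodes Nav1.7, was at 111 CPM or more in all 8 Calca neurons and at 38.6 CPM or more in all 24 comparison neurons.

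Asic3, an acid-sensing channel, reached 10 CPM in 4 of 8 Calca neurons, at 19.5 CPM in AM006, 30.8 in AM283, 71.2 in AM018 and 76.6 in AM020, against 2 of 24 comparison neurons (highest 34.8). Its difference of 41.7 points passed the first condition and its median difference of 0.93 fell short of the second, so it was not called. By 40 points alone, 0.475% of all genes compared were higher in Calca neurons and 2.64% lower. Piezo2, a stretch-gated channel, was at 600 CPM in AM059, 332 in AM018, 156 in AM249 and 11.6 in AM020, and below 10 CPM in the other 4, against 10 of 24 comparison neurons. Htr3a, a subunit of the serotonin-gated channel, was at 1166 CPM in AM020, 274.9 in AM018 and 47.5 in AM006, and 8 of 24 comparison neurons had it, up to 4054 CPM.

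Read by cell, the 8 neurons did not share 1 profile. AM021 combined Calca, Adcyap1, Cartpt (1454 CPM), Trpv1, Trpa1 and Gfra3. AM284 had Calca, Calcb, Adcyap1 and Nmb (427 CPM) with almost no P2rx2. AM283 had Nts, Calcb and the neuropeptide Y receptor Npy2r (261 CPM). AM249 had Penk, Syt4 (4689 CPM) and no Trpv1, Trpa1 or Scn10a above 10 CPM. AM006, AM018 and AM020 each held Htr3a, Asic3 and P2rx2 above 10 CPM, AM006 with the nucleotide receptor P2ry1 (758 CPM) and the serotonin receptor Htr2c (92.7 CPM) besides. AM059 had the most Tac1 and Piezo2 of the 8. Genes singled out by cell here, and the called genes described beyond the naming rule, were chosen after their values were seen.

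**Figure D3:**
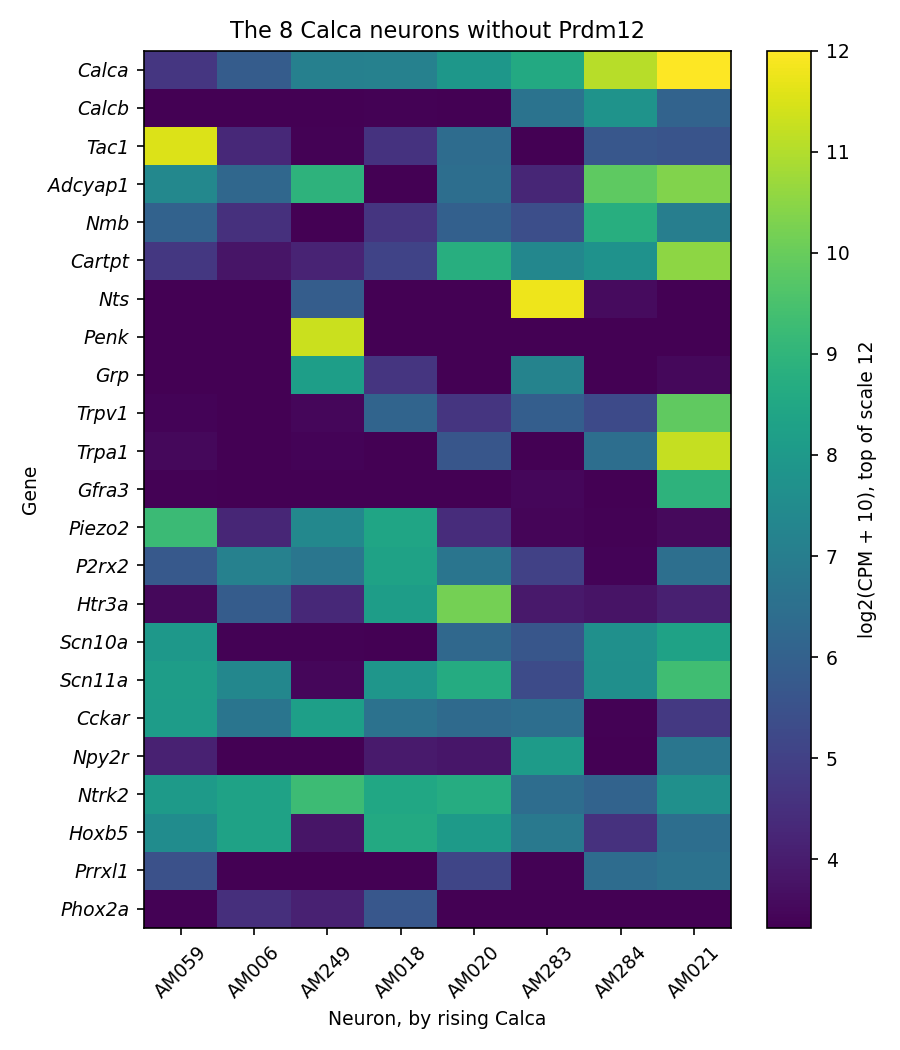
Level of 23 genes in each Calca neuron as log2(CPM + 10), columns ordered by rising Calca from 16.2 CPM (AM059) to 9512 CPM (AM021); colours saturate at 12. High levels of Trpa1 and Gfra3 appear in AM021, of Penk in AM249, of Nts in AM283 and of Tac1 in AM059, and Ntrk2 fills the row.

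The nearest neuron of each cell was mostly a comparison neuron, which is also the largest class. Pearson's r was taken between neurons over the 1000 most variable of 11253 genes, as a description across genes that share library and depth. The nearest neuron was a comparison neuron for 7 of the 8 Calca neurons, a Calca neuron for 1 (AM018, nearest AM020, r = 0.374) and a Prdm12 neuron for 0. Calca neurons make up 18.9% of the neurons each could have drawn, and the 24 comparison neurons most of them. The counts therefore say little about likeness. By mean r, AM018 and AM249 lay closer to Calca than to comparison neurons (0.295 against 0.252 and 0.249 against 0.219). All other Calca neurons lay closer to comparison neurons. The closest pair that included a Calca neuron was AM059 and AM069 (r = 0.772), which come from the same run of identifiers and lie on either side of the Calca limit. For all 6 Prdm12 neurons the nearest was another Prdm12 neuron, at r of 0.704 to 0.847. With 500 genes the counts for Calca neurons were the same, and with 2000 genes the nearest was a comparison neuron for all 8.

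Across all genes, 10946 reached 10 CPM in at least 4 of the 32 neurons and were compared. Calca itself was left out. The size rule called 18 genes higher in Calca neurons (0.164% of those compared) and 142 lower (1.3%). Since Calca drew this contrast, the counts describe the 2 classes and support nothing. The balance changed with TMM factors, which centre the bulk of the genes: 20 were called higher and 32 lower. The median over genes of the median log2 difference moved from -0.12 to -0.03. Of the 52 called genes, 9 higher and 20 lower genes were among the calls with plain CPM. The factors had medians of 1.71 in Calca neurons and 1.91 in comparison neurons, so 10 CPM became a stricter limit. With them 9445 genes were compared. Plain CPM with detection at 20 CPM left 9216, of which 22 were called higher and 95 lower. For calls that end with TMM factors, the parts of scaling and of the stricter limit were not tested.

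Single cells moved the counts as well. Without AM059, 0.266% of the genes compared were called higher and 2.77% lower, and without AM021 the shares were 0.202% and 2.23%. The count of higher genes was 29 without AM020, 29 without AM283 and 33 without AM284. AM059 held 110 of the 142 lower genes at 10 CPM, whereas the other 7 Calca neurons held 17 to 66 of them. Among comparison neurons, those with few genes also held fewer, 50 of 142 in AM219 with 5231 genes. AM234 and AM272, with 5885 genes each, held 68 and 74. The Calca neurons AM284, AM249 and AM283, with 5826, 5992 and 6089 genes, held 18, 21 and 17. The choice of the 142 genes by this same contrast sets part of that gap, and the part of gene number was not tested. With the limit raised to 7000 genes, which left 5 against 19 neurons, 74 genes were called higher and 149 lower.

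**Figure D4:**
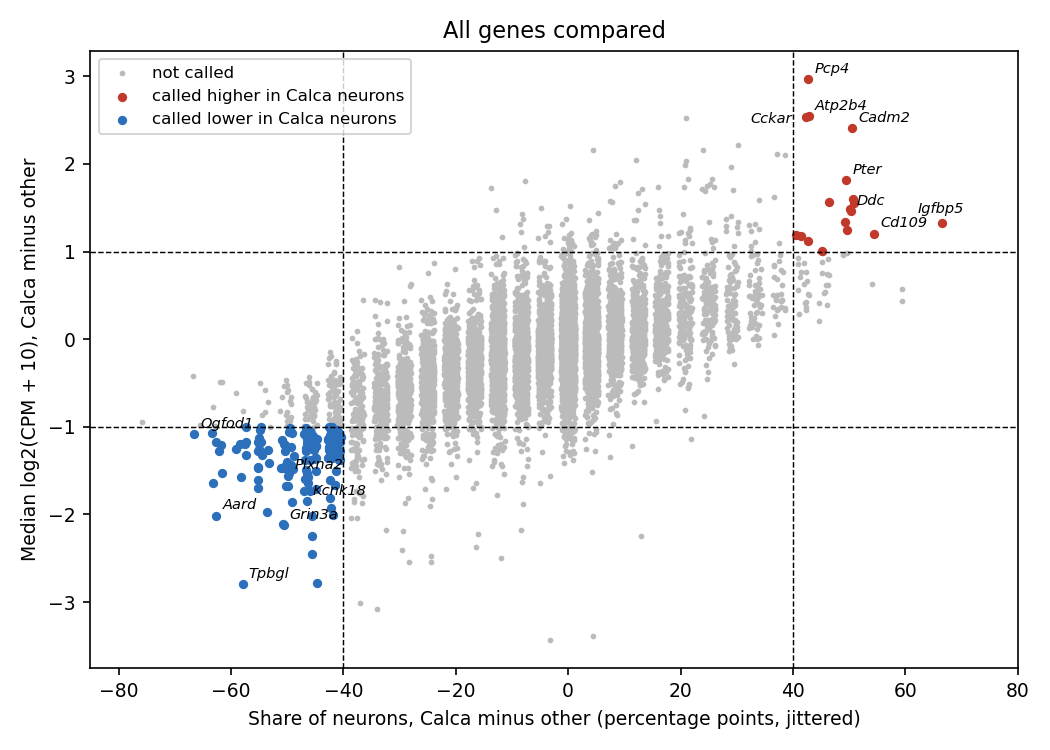
Each point is 1 of 10946 genes, by difference in the share of neurons at 10 CPM (percentage points, jittered) and difference in median log2(CPM + 10), both Calca minus comparison neurons; dashed lines mark the limits of 40 points and 1. The lower left corner holds 142 called genes and the upper right 18, among them Igfbp5 and Pcp4.

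Igfbp5, a secreted protein that binds insulin-like growth factors (chromosome 1, 72857932 to 72874884, minus strand), had the greatest difference in share among the 18, at 66.7 points, with a difference of 1.33 in the median log2 value. It was at 18.4 CPM in AM006, 11.9 in AM249, 45.8 in AM018, 17.4 in AM283, 13.2 in AM284 and 142 in AM021, and below 0.1 CPM in AM059 and AM020. Of 24 comparison neurons 2 reached 10 CPM, the higher at 16.5 CPM, so the shares were 75% (34.9 to 96.8%) and 8.33% (1.03 to 26.997%). It was called under 25 of 27 alternative settings, some of which could not end a call. With detection at 20 or 50 CPM it was not called, and most of the Calca neurons that held it lay below 20 CPM. In the first and last runs of identifiers the counts were 3 of 4 against 1 of 5 and 3 of 3 against 1 of 16.

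Pcp4, a calmodulin-binding peptide whose exons overlap Igsf5, had the greatest difference in the median log2 value among the 18 (2.97), with a median of 105 CPM against 2.55 CPM. It was found in 6 of 8 against 8 of 24. Atp2b4, a plasma membrane calcium pump, had medians of 70.4 and 3.98 CPM and was found in 7 of 8 against 11 of 24. Ddc, the enzyme that makes dopamine and serotonin from their precursors, was at 1724 CPM in AM018, 886 in AM249, 79.3 in AM006, 22.004 in AM020 and 14.9 in AM021. No comparison neuron passed 16.6 CPM, and 3 of 24 reached 10 CPM. Leaving out any 1 of the 6 Calca neurons with Pcp4, or any 1 of the 7 with Atp2b4, ended that gene's call. Ddc kept its call without any 1 Calca neuron and lost it with TMM factors or without the first run.

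Cckar, the cholecystokinin receptor known from vagal afferents of the gut, was at 70.7 to 288.6 CPM in 6 Calca neurons, 16.9 CPM in AM021 and 0.367 CPM in AM284. It was found in 11 of 24 comparison neurons, up to 218 CPM, and in 0 of 6 Prdm12 neurons. Its call rested on every cell that carried it: leaving out any 1 of the 7 Calca neurons that held Cckar (AM006, AM018, AM020, AM021, AM059, AM249 or AM283) ended it, as did TMM factors.

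Cadm2, a cell adhesion molecule with an exon overlap with 1700010K23Rik, was found in 5 of 8 against 3 of 24, with medians of 44.3 and 0.24 CPM. It was also present in 5 of 6 Prdm12 neurons. Cd109, a membrane-anchored glycoprotein, was found in 5 of 8 against 2 of 24, Rspo1, a secreted enhancer of Wnt signalling, in 5 of 8 against 3 of 24, and Sema3e, a secreted semaphorin, in 4 of 8 against 2 of 24. The call of Sema3e ended with TMM factors and without AM006, AM018, AM021 or AM249, and that of Cd109 with TMM factors. Pter, a phosphotriesterase-related protein, reached 10 CPM in all 8 Calca neurons, from 14.03 to 1187 CPM, and in 12 of 24 comparison neurons, and its call ended without AM006, AM018, AM021 or AM284.

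The other called genes were Dbndd2, Itpripl1, Gon7, Fam122b, Stard5, 1700001L19Rik, the orphan nuclear receptor Esrrg and Tnfaip3, an inhibitor of inflammatory signalling. Their shares in Calca neurons ran from 4 of 8 for Esrrg to 7 of 8 for Fam122b. Leaving out AM006, AM018, AM249 or AM283 ended the call of Esrrg. The call of Stard5 ended without AM018, AM020, AM249 or AM283, that of Gon7 without AM021, AM249, AM283 or AM284, and that of Tnfaip3 without AM006, AM018, AM021, AM059 or AM283. Of the 18 calls, 9 held without any 1 Calca neuron, and 7 of these also held with TMM factors: Igfbp5, Cadm2, Dbndd2, Itpripl1, Rspo1, Fam122b and 1700001L19Rik. Whether a call holds without 1 cell depends on how far its differences lie beyond the limits, and does not measure dependence on single cells. Exons of Dbndd2 and Gon7 overlap those of other genes on the same strand, Gm20458 and Gm20604 among them. Each Calca neuron held 7 to 16 of the 18 genes and each comparison neuron 0 to 9, a separation that the choice of genes sets.

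**Figure D5:**
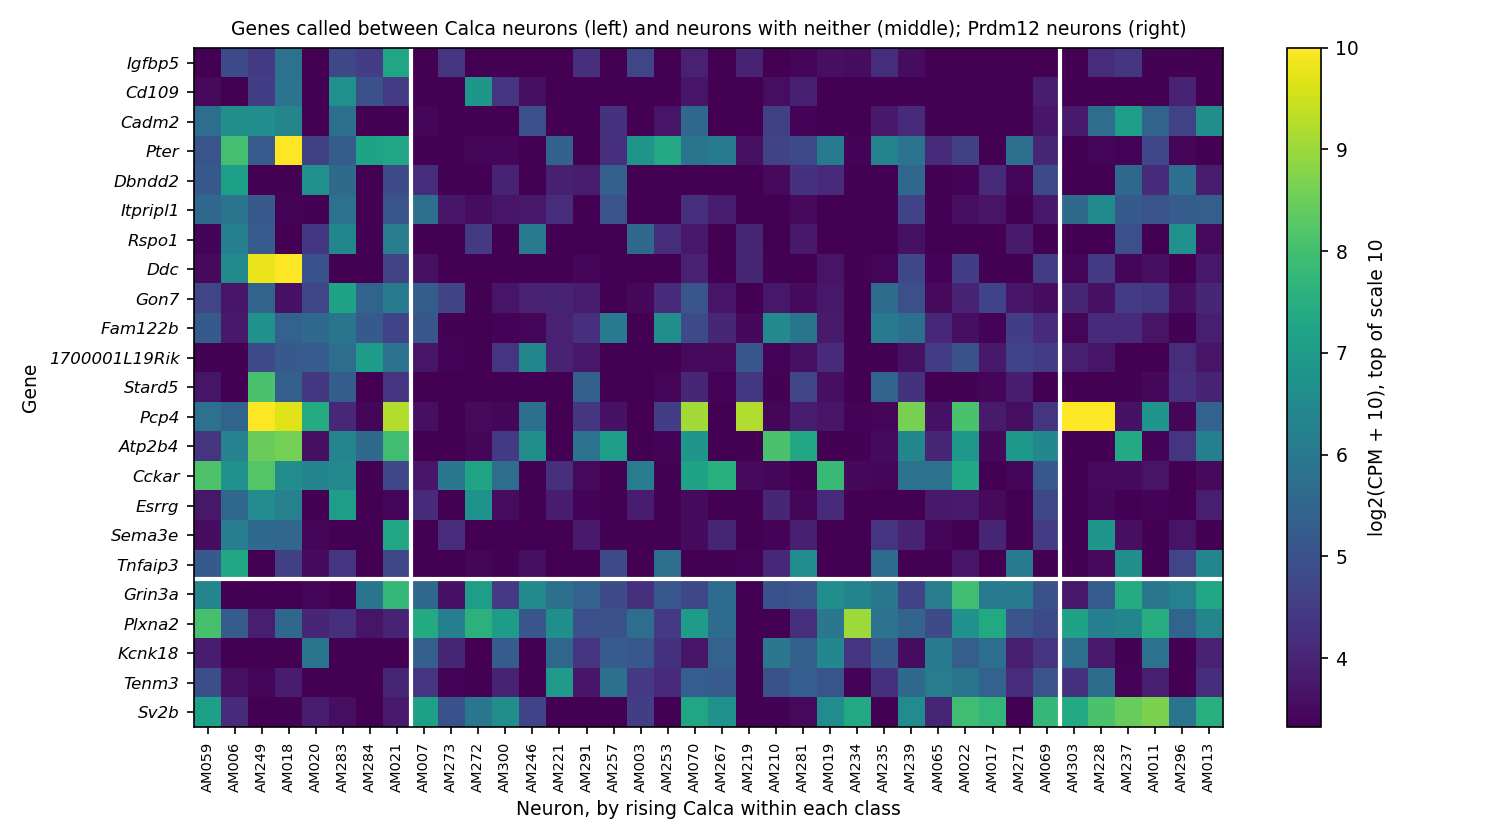
Level, as log2(CPM + 10) with colours saturating at 10, of the 18 genes called higher (above the white line) and of 5 lower genes from the fixed lists (below it) in the 8 Calca, 24 comparison and 6 Prdm12 neurons, ordered by rising Calca within each class. Each of the 18 genes is patchy across the Calca neurons, Pter (8 of 8) excepted, and AM059 keeps Grin3a, Plxna2, Tenm3 and Sv2b.

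Among the 514 genes of the lists, 355 were compared, with 2 called higher (0.563%) and 5 lower (1.41%) and a median difference of 0 points. The 2 higher were Cckar and Sema3e. Grin3a, a glutamate receptor subunit, reached 10 CPM in 3 of 8 Calca neurons (50.5 CPM in AM284, 71.7 in AM059 and 210 in AM021) and in 21 of 24 comparison neurons. In the other 5 Calca neurons it was at 0.598 CPM or less, while the comparison median was 34.9 CPM. Kcnk18, the TRESK potassium channel, which dampens excitability, was at 50.5 CPM in AM020 alone and had no count in 6 Calca neurons, against 14 of 24 comparison neurons with a median of 25.9 CPM.

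Plxna2, a semaphorin receptor, was found in 3 of 8 against 21 of 24, with AM059 at 257.4 CPM and the other 7 at 2.94 to 36.6 CPM. Tenm3, an adhesion protein of synaptic partners, and Sv2b, a synaptic vesicle protein, were each found in AM059 alone of the 8 (20.6 and 127 CPM) and in 14 of 24 comparison neurons. Exons of Tenm3 overlap Gm19744 and those of Sv2b overlap 1500012K07Rik. Grin3a, Tenm3 and Sv2b were not called with TMM factors or without the first run, and Kcnk18 was not called without the first run.

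Outside the lists the lower genes with the greatest differences were Ogfod1, Mysm1, Bckdk, Aard, Ttll11, Ranbp10, Mzt2, Nprl2, Tpbgl and Btf3l4. Ogfod1, a hydroxylase of the ribosome, was found in 2 of 8 against 22 of 24 (medians 8.39 and 28.9 CPM). Tpbgl was found in 3 of 8 against 23 of 24 (medians 1.84 and 72.4 CPM), and its exons overlap Gm10605 on the other strand. Nprl2, a repressor of growth signalling at the lysosome, was found in 3 of 8 against all 24. None of these 10 genes, nor the 5 from the lists, lost its call when 1 Calca neuron was left out. The 10 were taken for the greatest share differences, so their choice sets part of that outcome. Among all 142 lower genes, some calls did end in this way. Without AM284, 82 of the 142 stayed called, the fewest for any 1 Calca neuron. Without AM059, 131 stayed called, the most. With TMM factors Ogfod1, Mysm1, Bckdk, Ranbp10, Mzt2 and Nprl2 were not called.

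Markers of other cells were measured in the same neurons. Genes of satellite glia, which wrap these cell bodies, summed to 50.7 to 4744 CPM in Calca neurons (median 776) and 7.31 to 9936 CPM in comparison neurons (median 866), with all 7 genes at 10 CPM in some Calca neuron. All 7 had a higher share in Calca neurons, by a median of 16.7 points. Of all 10946 genes compared, 2753 had a higher share, and the median was -4.17 points. Fibroblast genes summed to 11.8 to 177 CPM (median 96.2) against 0.222 to 216.2 CPM (median 20.9), with Col1a2 at 10 CPM in 6 of 8 against 9 of 24. Their part in the results was not tested.

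Endothelial genes summed to 0.0603 to 120 CPM (median 27.2) in Calca neurons and 0 to 83.3 CPM (median 0.117) in comparison neurons. Of the 6 genes, 2 reached 10 CPM in a Calca neuron: Flt1 in AM249, AM283 and AM021, and Cldn5 in AM018, while Emcn had no count. Leaving out the 5 Calca neurons in which the list summed to 10 CPM or more left 3 against 24 neurons, with 1.6% of the genes compared called higher and 2.11% lower. Of these, 7 higher and 43 lower genes were calls of the full comparison. Leukocyte genes summed to 0 to 34.6 CPM in Calca neurons, highest in AM249 (median 6.70), and to 0 to 56.9 CPM in comparison neurons (median 1.33). Of the 7 genes 3 reached 10 CPM in a Calca neuron, and Ptprc, Cd3e and Cd79a were at 0 in all 8. Epithelial genes summed to 0 to 65.8 CPM, highest in AM059 (median 16.1), against a median of 18.9 CPM. Of the 6 genes 2 reached 10 CPM in a Calca neuron, and Epcam, Krt8 and Krt18 were at 0. Genes of sympathetic and motor neurons summed to 14.1 to 407 CPM in Calca neurons (median 40.3) and 4.76 to 1360 CPM in comparison neurons (median 102). The highest Calca neurons were AM249 at 407 CPM and AM018 at 197 CPM, which also held the most Ddc of the 8. Slc6a2 and Mnx1 had no count in Calca neurons. The part of these lists in the results was not tested.

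The 6 Prdm12 neurons show what the Calca neurons were not. Between these 2 classes 9380 genes were compared, and 143 were called higher in Calca neurons (1.52%) and 576 lower (6.14%). Prdm12 drew the classes, so these counts too are a description. Of the list genes compared, 18 were called higher (6.19%) and 37 lower (12.7%). The same Calca neurons enter both contrasts, and the values for Prdm12 neurons are set beside them only as levels.

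Genes higher than in Prdm12 neurons included the nodose markers P2rx2, Ntrk2 and Hoxb5, with Hoxb4, Eya1, Cckar and Efna5. Efna5, a guidance ligand, was found in 8 of 8 Calca neurons and 1 of 6 Prdm12 neurons, with medians of 52.5 and 0.0624 CPM. Rasgrp1, an activator of Ras, was found in 6 of 8 against 0 of 6, Syt17 in 5 of 8 against 0 of 6, and Gfra2, the neurturin receptor, in 4 of 8 against 0 of 6. In the comparison neurons Efna5 was found in 24 of 24 and Gfra2 in 20 of 24.

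Genes lower than in Prdm12 neurons included ion channels and jugular markers. Syt6, a synaptotagmin, reached 10 CPM in 0 of 8 Calca neurons (a share of up to 37.5%) and stood at 99.5 to 140 CPM in all 6 Prdm12 neurons, with no overlap. Asic3 had a median of 10.9 against 320 CPM, and the lowest Prdm12 neuron, at 78.9 CPM, lay above the highest Calca neuron, at 76.6 CPM. Piezo2 had medians of 10.4 and 444 CPM with overlap, since AM059 (600 CPM), AM018 and AM249 lay above the lowest Prdm12 neuron at 104 CPM. Sv2b (1 of 8 against 6 of 6), Ntrk3 (1 of 8 against 5 of 6), the calcium-activated cyclase Adcy1 (0 of 8 against 5 of 6) and the potassium channel Kcnd3 (3 of 8 against 6 of 6) went the same way. Low shares were not particular to the Calca neurons for all of these genes. In the comparison neurons Asic3 was found in 2 of 24 and Adcy1 in 8 of 24, whereas Sv2b was called lower against them too.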

How the data were processed

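The deposited table holds whole-number read counts for 50686 genes in 84 single neurons, as deposited by the authors without normalization. The tool that made them was featureCounts, per the submitters' processing notes. For its version, the aligner, the build, the annotation and the strand setting the answer is the same: not given in the sources used here. The labels describe amplification and name no molecular identifiers, so 1 molecule can count more than once. Total counts ran from 576966 to 20668832 per neuron. Gene identifiers were matched to GENCODE M21 (GRCm38), which gave symbols for 50376.

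Counts were scaled to CPM, a gene was detected at 10 CPM, and medians were taken on log2(CPM + 10). A gene was compared if detected in at least 4 of the neurons at hand, and called at a difference of 40 points in the share of neurons and 1 in the median log2 value, in 1 direction. Shares carry exact (Clopper-Pearson) 95% intervals, and a share of 0 the limit that 3 counts set. No animal is named for any neuron, so no test across samples was run. No 2 neurons had identical counts and no doublet caller was run, since cells were picked singly.

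The members, the lists (pathways and markers of other cells) and the rules were chosen with earlier results of these data known. The text names all ganglion markers and calcitonin family genes, called list genes, the 10 genes per direction outside the lists with the greatest share difference, and the member of a list with the highest share in Calca neurons. Not in the table under their listed symbols were Drgx and Sting1, listed also as Prrxl1 and Tmem173.

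The scripts ran in Python 3.11.15 (scipy 1.17.1, pandas 2.3.3, numpy 2.4.6, matplotlib 3.10.9; seed 1), and TMM factors came from edgeR 4.0.16 in R 4.3.3, with no edgeR test. The comparison was tested on simulated data. Alternatives covered the detection limit, the class limits, the gene minimum, scaling, thinning to equal counts, the size rule, the runs of identifiers (parted by gaps of more than 30 numbers) and each Calca neuron.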

Additional observations from a re-analysis of the deposited data

Results flagged for a closer look

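Of 66 measures (total counts, gene number, Calca and the named genes that reached 10 CPM in a Calca neuron, on the log2(CPM + 10) scale), 10 had 1 of the 8 Calca neurons far above the rest, by the gap to the next value over the range (Dixon's criterion). This only describes these cells. The usual rate of about 1 group in 20 by chance is for normal values, and 6 of these 10 genes were named for being low in the class. AM059 accounted for 6 of the 10: Tac1 at 2964 CPM (next highest 73.3), Plxna2 at 257.4 CPM (next 36.6), Sv2b at 127 CPM (next 7.42), Mysm1 at 61.8 CPM (next 8.98), Bckdk at 26.9 CPM (next 8.13) and Tenm3 at 20.6 CPM (next 6.17). AM249 stood apart for Syt4, a synaptotagmin of dense core vesicles, at 4689 CPM (next 1753) and for Calcrl at 129 CPM (next 0), in the cell with the highest sum of endothelial markers (120 CPM). AM020 stood apart for Kcnk18 at 50.5 CPM (next 4.14) and AM006 for Htr1b at 24.01 CPM (next 1.57).

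Calca was also present in neurons that the comparison did not use. Of the 45 neurons left out for depth or gene number with Prdm12 below 10 CPM, 18 had Calca at 10 CPM or more, and their levels spanned 12.2 to 7111 CPM (median 228.3).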

How the results depend on the processing

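With plain CPM at 10 CPM, 0.164% of the genes compared were called higher in Calca neurons and 1.3% lower. The higher share moved by more than 1.5 times to 0.0563% at a detection limit of 5 CPM and 0.384% at 50 CPM, 0.278% with Calca at 100 CPM or more, 0.334% against neurons with Calca below 1 CPM, 0.698% with 7000 genes or more, 0.274% at 30 points, 0.0914% at 50 points, 0.475% without the condition on the median and 0.0619% without a minimum number of neurons. The lower share moved to 0.719% at 50 CPM, 4.26% with Calca at 100 CPM or more, 0.484% with 4000 genes or more, 0.339% with TMM factors, 2.25% at 30 points, 0.484% at 50 points, 2.64% without the condition on the median and 0.488% without a minimum number of neurons, which adds genes and no call. Without the first, second or last run of identifiers the shares were 0.409%, 0.271% and 1.003% higher and 4.08%, 2.32% and 3.86% lower. Leaving out 1 Calca neuron gave 0.166 to 0.303% higher and 1.08 to 2.77% lower. Without the Calca neurons with endothelial markers, an alternative chosen after seeing the data, they were 1.6% and 2.11%. Beyond the number of neurons or genes that an alternative changes, the cause was not tested.

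At 50 CPM the share differences of Fam122b (-8.33 points) and Mysm1 (8.33 points) changed sign, and the cause was not tested. Of 1917 such values over 71 named genes and 27 alternatives, 1897 stayed within the counting interval of the share difference. That count does not measure stability. Settings that change only the size rule or the minimum number of neurons leave a share difference as it was. The others mostly reuse the same cells, and the interval is wide with 8 Calca neurons. No paired analysis was possible because the labels define 1 group. With 8 Calca neurons a share of 0 of 8 still allows up to 37.5%, and no molecular identifiers are named for the amplified reads.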
